A study of Mus musculus with 10 samples.

Results

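Heat shock and cold-inducible genes were described in the livers of 5 Nr1d1 knockout (KO, Nr1d1-/-) and 5 wild-type (WT) male mice. The 10 genes Hspb1, Hspa1a, Hspa1b, Hspa8, Hsp90aa1, Hsph1, Dnaja1, Dnajb1, Cirbp and Rbm3 were chosen by name, and every probe set whose annotated symbols include 1 of them was taken. This gave 20 of the 27541 probe sets in the table, 17 for heat shock genes and 3 for the cold-inducible genes Cirbp and Rbm3. Nr1d1 encodes Rev-erb alpha, a nuclear receptor that represses genes of the circadian clock. All mice were on a C57Bl/6 background, 10 to 12 weeks old, fed normal chow and kept on a cycle of 12 h light and 12 h dark, and they were killed at ZT10, 10 h after lights on. The KO line had been backcrossed for at least 7 generations, while the WT mice were bought, so genotype and origin of the mice cannot be told apart. Each mouse gave 1 RNA sample and 1 Affymetrix Mouse Gene 1.0 ST array, and the mice of both genotypes had been housed and harvested together.

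Heat shock proteins are chaperones that hold, refold or pass on unfolded proteins. Their genes are driven by the transcription factor HSF1, which binds heat shock elements, arrays of the 5-base unit whose core is GAA and its inverse TTC. Cirbp and Rbm3 encode RNA-binding proteins that accumulate when cells are mildly cooled. In mouse liver, heat shock transcripts and Cirbp are known to oscillate over the day in opposite phase, following body temperature and other systemic signals, which makes the spread between single livers at a fixed hour part of the description.

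The promoter windows of the members are shown first, as background. The genes were chosen by name, and a link between matches in their windows and the KO values was not tested. Windows reach from 250 bases before to 50 bases after a RefSeq transcription start (build GRCm38.p6), and 7 of the 10 genes had 1 or more, 12 windows in all. Hspa8, Hsp90aa1 and Rbm3 had none in that table. Each window was searched for GAANNTTC and TTCNNGAA, which each read the same on both strands and can overlap each other. The 8 bases of each match are in capitals below, and all sequences run 5′ to 3′ on the gene's strand. A match is a run of letters, not a shown binding site.
Hspb1: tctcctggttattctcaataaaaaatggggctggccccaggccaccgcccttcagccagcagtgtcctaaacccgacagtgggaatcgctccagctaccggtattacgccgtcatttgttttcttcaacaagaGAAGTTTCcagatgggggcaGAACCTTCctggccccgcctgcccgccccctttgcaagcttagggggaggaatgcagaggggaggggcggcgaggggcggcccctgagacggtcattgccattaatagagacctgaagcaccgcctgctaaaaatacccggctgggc
Hspa1a: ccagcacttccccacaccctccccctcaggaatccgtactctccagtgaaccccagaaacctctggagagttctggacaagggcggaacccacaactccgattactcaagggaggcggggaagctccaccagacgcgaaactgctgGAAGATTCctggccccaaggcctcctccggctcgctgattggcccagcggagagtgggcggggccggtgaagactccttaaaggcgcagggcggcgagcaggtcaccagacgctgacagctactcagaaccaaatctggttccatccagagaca
Hspa1b: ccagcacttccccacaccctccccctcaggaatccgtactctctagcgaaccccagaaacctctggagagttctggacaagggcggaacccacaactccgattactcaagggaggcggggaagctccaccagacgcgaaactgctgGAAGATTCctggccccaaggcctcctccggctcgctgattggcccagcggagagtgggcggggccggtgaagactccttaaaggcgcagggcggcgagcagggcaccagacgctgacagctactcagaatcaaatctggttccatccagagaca
Hsph1: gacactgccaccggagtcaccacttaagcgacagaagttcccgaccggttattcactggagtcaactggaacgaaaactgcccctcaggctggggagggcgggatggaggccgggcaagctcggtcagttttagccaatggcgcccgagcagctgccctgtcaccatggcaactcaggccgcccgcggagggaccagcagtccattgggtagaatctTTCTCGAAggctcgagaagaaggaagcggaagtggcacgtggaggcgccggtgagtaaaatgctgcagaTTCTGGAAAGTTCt
Cirbp: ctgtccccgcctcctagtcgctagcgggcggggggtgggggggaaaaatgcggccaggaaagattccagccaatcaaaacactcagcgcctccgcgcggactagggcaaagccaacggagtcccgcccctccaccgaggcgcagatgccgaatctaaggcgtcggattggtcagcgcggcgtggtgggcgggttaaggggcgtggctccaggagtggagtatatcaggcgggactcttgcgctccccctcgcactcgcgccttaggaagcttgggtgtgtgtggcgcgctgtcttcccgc

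The Hspb1 window (chr5:135887669-135887968, plus strand) held 2 matches to GAANNTTC, which began 117 and 97 bases before the start. Those of Hspa1a (chr17:34972107-34972406, minus strand) and Hspa1b (chr17:34959189-34959488, minus strand) held 1 each, 104 bases before the start, and the windows of these neighbouring copies differed at 4 of 300 bases. The Hsph1 window shown (chr5:149636287-149636586, minus strand) held a TTCNNGAA 33 bases before the start and a run of overlapping matches that began 36 bases after it, where 3 alternating units stand in a row. Such a row of 3 units occurred in 0.603% of the 32851 windows in the table. A single match of either kind occurred in 15.1% of them. Among the members it was found in 5 of 7 genes, the fifth being Dnaja1, against 17% of the 27025 genes with a window. It was found in 6 of the members' 12 windows, but the Hsph1 windows overlap and hold the same matches, and those of Hspa1a and Hspa1b are near copies. The windows of Dnajb1 and Cirbp (chr10:80167589-80167888, plus strand, is the Cirbp window shown) held none. The half-site AGGTCA, to which Rev-erb alpha binds when A and T bases precede it, was searched on both strands and was present in 16.3% of all windows and in 1 window each of Hspa1a and Dnaja1. The bases just before it were gcgagc in Hspa1a and, on the opposite strand, gtggag in Dnaja1, neither of them a stretch of A and T.

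All values below are log2 of the deposited intensity. The differences are KO minus WT from limma, each with its standard error (SE) or 95% interval. The fit takes 1 variance per probe set for both genotypes, and no fit gave each genotype its own variance in each probe set. Where the genotypes differ in spread, the SE, interval and p are therefore approximate. A probe set was called where the p, adjusted by Benjamini-Hochberg across the 22948 probe sets with a symbol, was under 0.05. A level in 1 probe set cannot be set against that in another, since probes differ in brightness. All 200 single values of the members lay above the median of their array, the lowest being 7.70 against a highest array median of 7.37. In bulk liver, fewer cells of a type and less RNA per cell cannot be told apart.

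The targeted gene itself does not check the labels here: Nr1d1 read 9.29 to 10.54 in KO and 9.60 to 10.00 in WT livers, a difference of 0.14 (limma adjusted p = 0.808), and the labels and table do not say whether its probe set lies in the deleted part. The Rev-erb target Arntl did separate the genotypes, at 9.12 to 9.82 in KO against 6.93 to 7.54 in WT livers. Hepatocyte markers (Alb, Apoa1, Ttr, Serpina1c and Tdo2) averaged 13.36 to 13.98, far above the upper quartile of every array (8.90 to 8.99). Of 39 probe sets for markers of 9 cell types, Sox9 alone was called, higher in KO by 0.62 (SE 0.128, limma adjusted p = 0.0155), and the summed intensity of the 4 cholangiocyte markers measured was 709.8 to 912.8 in KO and 592 to 691 in WT livers. The other 3, Krt19, Krt7 and Epcam, had mean differences of -0.02, -0.11 and -0.01. The part of these cells in the results below was not tested.

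Over the whole array 1181 of 22948 probe sets were called (5.15%), 521 of them lower in KO (2.27%). Of the 20 member probe sets 4 were called (20%), all of them lower in KO. By limma 0 were called higher, against 2.88% of all probe sets, and at an unadjusted p under 0.05 there were 11 member probe sets (17% of all probe sets), of which 0 were higher (8.48% of all). Every KO liver lay below every WT liver in 2 of the 20 (3.05% of all probe sets), and in no member did every KO liver lie above every WT liver (3.75%). The called probe sets were both for Hspb1, the one shared by Hspa1a and Hspa1b, and 1 of those shared by Hspa8 and small nucleolar RNAs. The KO mean was the lower one in all 17 heat shock probe sets and in both for Rbm3, and the higher one for Cirbp. By comparison 46.7% of all probe sets tested had a lower KO mean. The median difference was -0.62 over the heat shock probe sets and 0.01 over all probe sets tested, and probe sets of a gene share transcripts and are not independent of each other. The members and these counts were picked with earlier results of these data known.

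**Figure D1:**
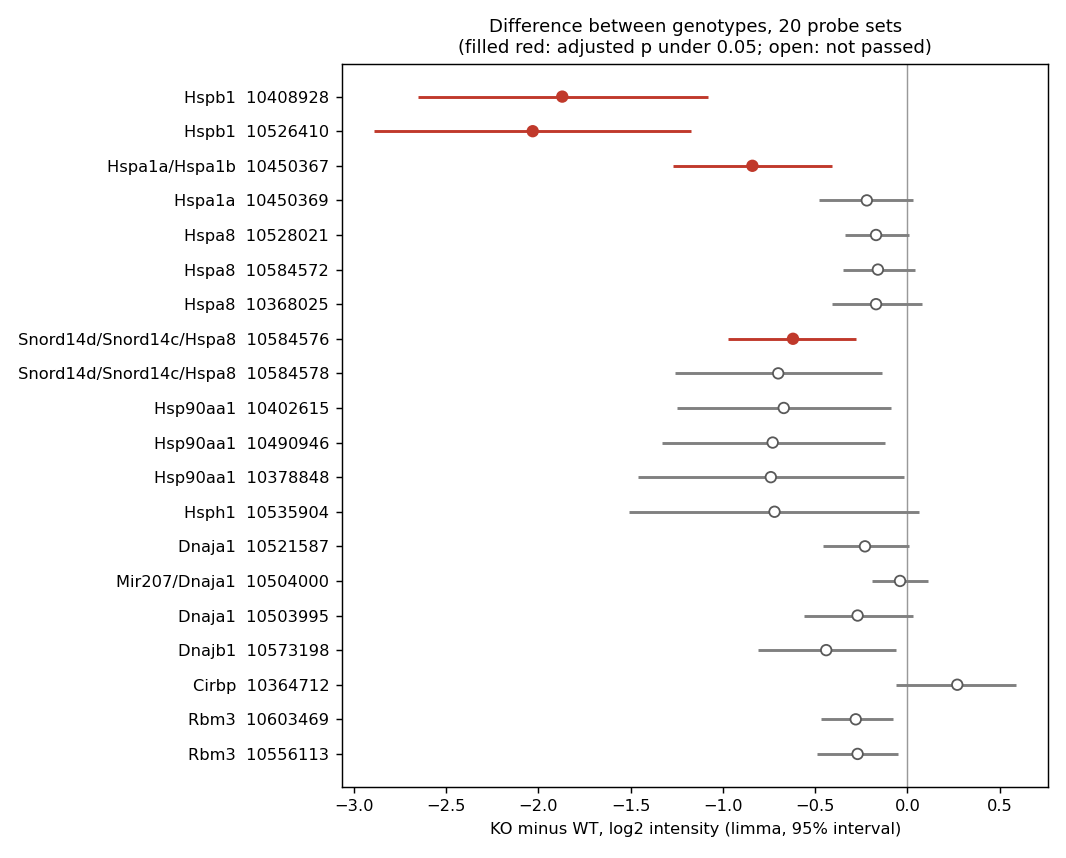
Difference between genotypes for the 20 probe sets. The x axis gives KO minus WT in log2 intensity with the 95% interval of limma, and filled red points passed an adjusted p under 0.05. The 4 filled points lie at -2.03 to -0.62, and Cirbp is the only probe set right of 0.

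Hspb1 encodes HSP25, the small heat shock protein that binds unfolding proteins without using ATP and protects actin filaments. Its probe set 10408928 read 8.43, 8.27, 8.26, 8.32 and 8.73 in the KO livers, against 10.62, 11.67, 10.23, 9.58 and 9.23 in the WT livers. Every KO liver lay below every WT liver. The KO livers lay within 0.46 of each other, while the WT livers spread over 2.43, so the gap between the groups depends on which WT liver is taken. The mean was 8.40 ± 0.193 in KO and 10.27 ± 0.953 in WT (SD, n = 5 each), a difference of -1.87 (SE 0.358, limma adjusted p = 0.00973), which is 3.64-fold lower in KO. This SE and p assume an equal spread in both genotypes, which these SDs do not show.

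The second Hspb1 probe set, 10526410, gave 7.90, 8.11, 8.16, 8.29 and 8.72 in KO livers against 10.49, 11.86, 10.23, 9.48 and 9.28 in WT livers. Again no KO liver reached the lowest WT liver, and WT replicate 2 was the highest of all. The difference was -2.03 (SE 0.393, limma adjusted p = 0.0104). Both calls held when any 1 array was left out, with differences between -2.28 and -1.52. They were lost without the 3 arrays of widest interquartile range (WT replicate 1, KO replicates 4 and 5), where the differences were -1.86 and -2.16 (limma adjusted p = 0.101 and 0.0844). RefSeq lists a pseudogene named Hsp25-ps1, and which of the 2 probe sets reads which locus is not stated by the annotation used.

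Hspa1a and Hspa1b encode the inducible HSP70, an ATP-driven chaperone that is scarce in unstressed cells and rises steeply on heat. The probe set 10450367, annotated to both genes, read 9.37, 9.63, 9.41, 9.72 and 9.74 in KO livers and 10.72, 10.88, 10.59, 9.62 and 10.25 in WT livers. In 4 WT livers the signal lay above every KO liver, and WT replicate 4 lay inside the KO range. The difference was -0.84 (SE 0.197, limma adjusted p = 0.0298), or 1.79-fold lower in KO. That call was lost when any 1 of 7 arrays was left out (KO replicates 1 to 4, WT replicates 1 to 3, the highest limma adjusted p being 0.0761), and also under a fit that left out the 3 arrays of widest interquartile range (0.136) or used a variance trend and robust priors (0.0513), while the difference stayed between -1.03 and -0.72 when single arrays were left out.

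A further probe set, 10450369, is annotated to Hspa1a alone. It read 7.92, 7.92, 7.91, 8.21 and 7.94 in KO livers against 8.34, 8.28, 8.35, 7.70 and 8.34 in WT livers. Here WT replicate 4 was the lowest of all 10 livers and the other 4 WT livers were the highest. The difference of -0.22 did not pass (95% interval -0.48 to 0.03, limma adjusted p = 0.386), and without WT replicate 4 it was -0.35 (limma adjusted p = 0.0118). Leaving out the lowest WT liver widens this difference by construction, so the second p is no support for a call. The 2 copies have nearly the same sequence, so signal of either can reach the shared probe set.

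Hspa8 encodes HSC70, the HSP70 made in all cells without stress, and its probe sets showed small differences. The probe set of highest level, 10528021, read 13.34, 13.32, 13.16, 13.39 and 13.41 in KO livers against 13.61, 13.63, 13.58, 13.24 and 13.40 in WT livers. WT replicates 1 to 3 lay above every KO liver, and WT replicates 4 and 5 lay among them. Its difference was -0.17 (95% interval -0.34 to 0.01, limma adjusted p = 0.320). The other 2 probe sets of Hspa8 alone gave -0.16 and -0.17 and did not pass either (limma adjusted p = 0.438 and 0.538). Since the lowest bound among the 3 intervals was -0.41, a fall of the size seen in Hspb1 lay outside them.

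A pair of probe sets annotated to Hspa8 and to Snord14c and Snord14d, small nucleolar RNAs that guide ribosomal RNA modification and are cut from introns of Hspa8, behaved otherwise. Probe set 10584576 read 10.70, 10.75, 10.76, 11.00 and 10.67 in KO livers and 11.53, 11.21, 11.67, 10.80 and 11.81 in WT livers. Its highest WT liver was replicate 5, which was not high in the Hspa8 probe sets without the small nucleolar RNAs, and its lowest was replicate 4, inside the KO range. The difference was -0.62 (SE 0.160, limma adjusted p = 0.0441), a call lost when any 1 of 9 arrays was left out (limma adjusted p up to 0.111) and in other fits, when probe sets without a symbol were also tested (0.0504), with array weights (0.0536), with a variance trend and robust priors (0.067) and without the 3 arrays of widest interquartile range (0.188). It held without WT replicate 4. The companion 10584578 differed by -0.70 and did not pass (95% interval -1.26 to -0.14, limma adjusted p = 0.166). How much of the signal comes from the small RNAs and how much from the Hspa8 transcript is not given by the table.

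**Figure D2:**
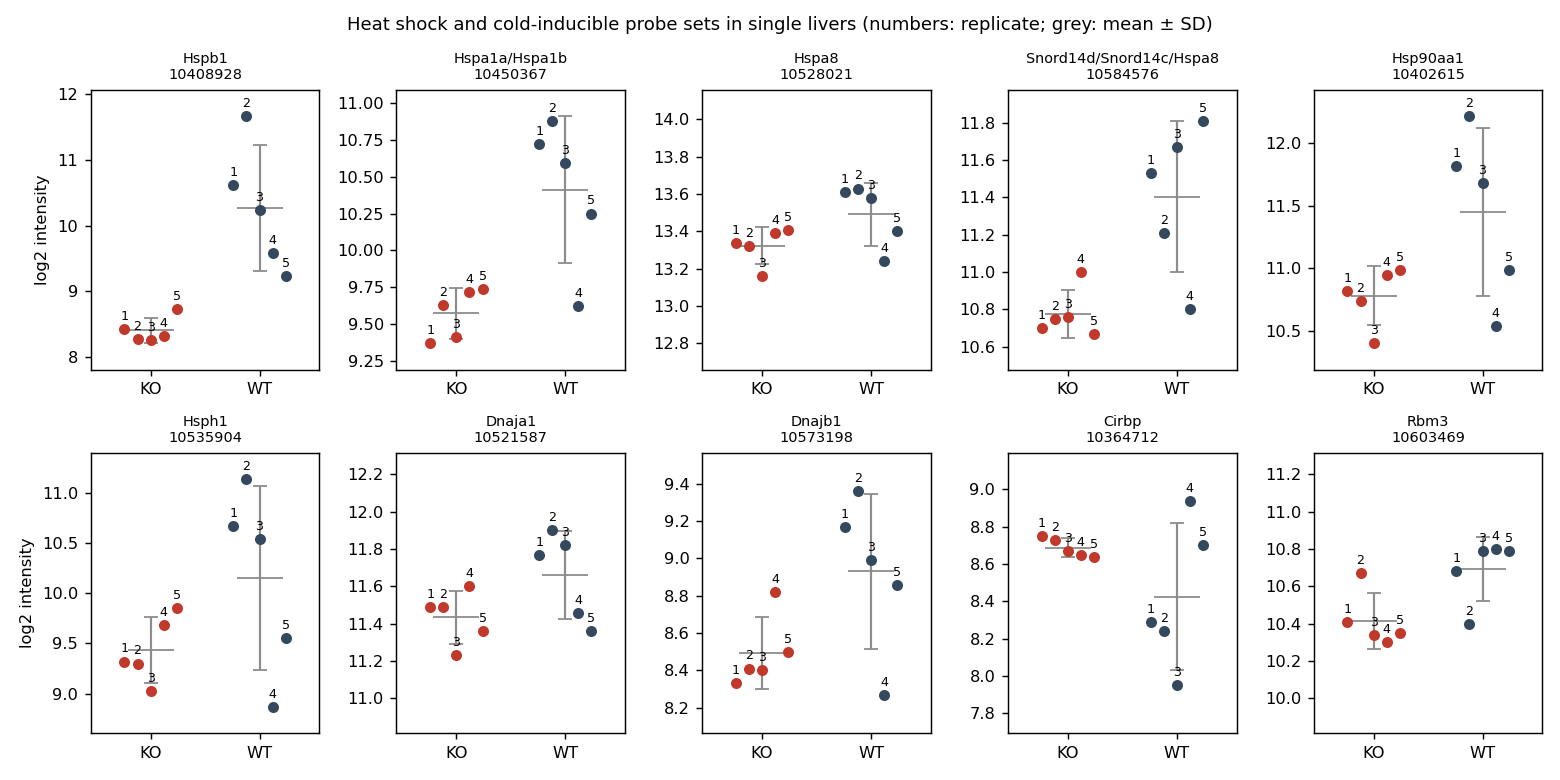
Log2 intensity of 10 probe sets in single livers, KO left and WT right in each panel, with the replicate number over each point and the mean ± SD in grey. In the Hspb1 panel the 5 KO livers sit between 8.26 and 8.73, all below the WT livers, while in the other heat shock panels WT replicate 4 sits among or below the KO livers.

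Hsp90aa1 encodes the stress-inducible form of HSP90, which matures kinases and steroid receptors. In probe set 10402615 the KO livers read 10.82, 10.74, 10.40, 10.95 and 10.99, and the WT livers 11.82, 12.22, 11.68, 10.54 and 10.99. WT replicates 1 to 3 stood clear above the KO livers, WT replicate 5 level with the highest KO liver and WT replicate 4 below most of them. The difference was -0.67 (95% interval -1.25 to -0.09) and did not pass (limma adjusted p = 0.208). The other 2 probe sets of the gene, 10490946 and 10378848, gave -0.73 and -0.74 and did not pass (limma adjusted p = 0.189 and 0.278).

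Hsph1 encodes HSP105, a large relative of HSP70 that acts as its nucleotide exchange factor. Probe set 10535904 read 9.32, 9.30, 9.03, 9.68 and 9.85 in KO livers against 10.67, 11.14, 10.54, 8.87 and 9.55 in WT livers. The WT livers thus held both the highest and the lowest value of the 10. The difference of -0.72 did not pass (95% interval -1.51 to 0.06, limma adjusted p = 0.348).

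Dnajb1 and Dnaja1 encode HSP40 co-chaperones, which deliver unfolded proteins to HSP70 and stimulate its ATPase. Dnajb1 (10573198) read 8.33, 8.41, 8.40, 8.82 and 8.50 in KO livers against 9.17, 9.36, 8.99, 8.27 and 8.86 in WT livers. Again 4 WT livers lay above every KO liver and WT replicate 4 lay below all of them, with a difference of -0.44 that did not pass (95% interval -0.81 to -0.06, limma adjusted p = 0.203). Dnaja1 differed by -0.23 in 10521587 and by -0.27 in 10503995, and neither passed (limma adjusted p = 0.319 and 0.357). The remaining Dnaja1 probe set, 10504000, is also annotated to the microRNA gene Mir207 and differed by -0.04 (95% interval -0.19 to 0.11). RefSeq lists a pseudogene Dnaja1-ps, and the annotation does not say which Dnaja1 probe set could read it.

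Of the 3 probe sets of the cold-inducible genes none was called by limma. Cirbp encodes an RNA-binding protein that is made more in the cold and less on heat. Cirbp's probe set 10364712 read 8.75, 8.73, 8.67, 8.65 and 8.64 in KO livers and 8.29, 8.24, 7.95, 8.94 and 8.70 in WT livers. The KO livers lay within 0.11 of each other, while 3 WT livers (replicates 1 to 3) lay below them and WT replicate 4 lay above them. The difference of 0.27 did not pass (95% interval -0.06 to 0.59, limma adjusted p = 0.422).

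Rbm3 encodes a close relative of Cirbp with the same kind of RNA recognition motif. Probe set 10603469 read 10.41, 10.67, 10.34, 10.30 and 10.35 in KO livers against 10.68, 10.40, 10.79, 10.80 and 10.79 in WT livers. Here the WT livers were mostly the higher ones, with KO replicate 2 and WT replicate 2 each lying among the other genotype. The difference was -0.28 (95% interval -0.47 to -0.08, limma adjusted p = 0.115). It passed without KO replicate 2 (-0.34, limma adjusted p = 0.0460) or without WT replicate 2 (-0.35, 0.0251). These were the highest KO and the lowest WT liver, so leaving either out widens the difference by construction. The second Rbm3 probe set, 10556113, gave -0.27 and did not pass (limma adjusted p = 0.176).

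The spread between livers of a genotype was also described, and related genes outside the members shared it in part. The SD over KO livers was below that over WT livers in 17 of the 20 probe sets (85%), against 48.4% of all probe sets tested. It was below 0.5 times the WT SD in 13 of them (65%), against 12% of all probe sets. The median ratio of KO to WT SD was 0.45 for the members and 1.02 over all probe sets tested. With all 10 arrays the smallest ratio was that of Cirbp (0.125), with an SD of 0.0493 in KO and 0.393 in WT livers, followed by Hspb1 (10408928) at 0.203. The exceptions were the Mir207/Dnaja1 probe set (1.54), Hspa8 10368025 (1.26) and Rbm3 10556113 (1.05). These ratios are a description of 5 mice per genotype, with no test, and single ratios depended on the setting. Cirbp's was 0.0749 with arrays centred and 0.201 with quantile normalization repeated. Hspb1's (10408928) was 0.0807 without KO replicate 5 and 0.308 without WT replicate 2. The ratio of Hspa1a alone was 0.458 with all arrays and 4.26 without WT replicate 4. Outside the members, the HSP90 co-chaperone gene Stip1 had an SD of 0.225 in KO and 0.472 in WT. It read 11.28, 11.61, 11.19, 10.42 and 10.73 in WT replicates 1 to 5. The SDs were 0.112 and 0.289 for Ahsa1, while Cdc37 went the other way, at 0.0918 and 0.0459. Such related genes were not counted.

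**Figure D3:**
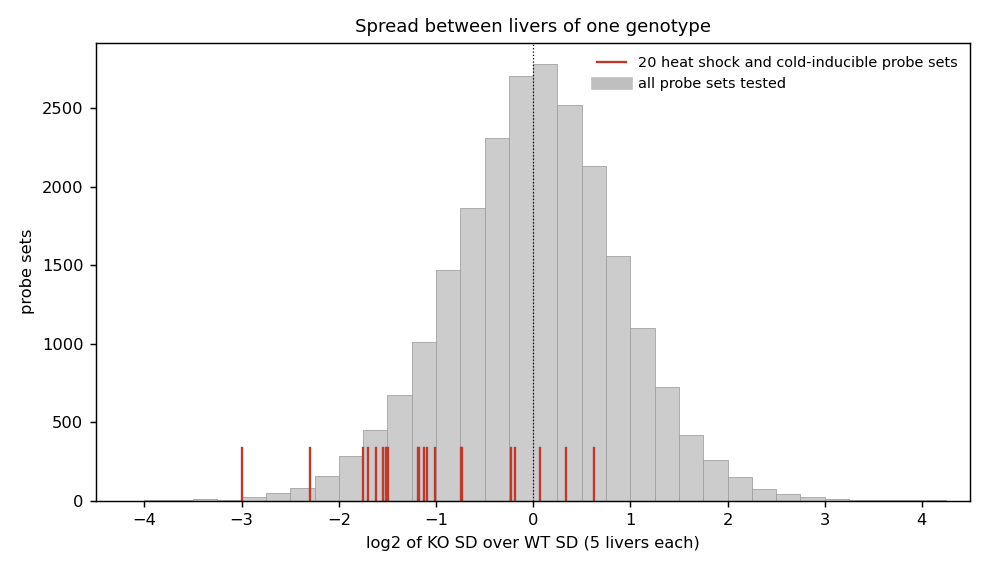
Distribution of the ratio of KO SD to WT SD on a log2 x axis, as counts of probe sets in bins of 0.25 for all 22948 tested (grey bars), with a red line for each of the 20 heat shock and cold-inducible probe sets. Of the 20 lines 17 lie left of 0, where livers of WT mice varied more.

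The wide spread in WT followed the same livers from gene to gene, and the KO livers kept an order too. Among KO livers, replicate 4 or 5 was the highest in 16 of the 17 heat shock probe sets, and replicate 3 the lowest in 10. WT replicates 1, 2 and 3 all lay above every KO liver in 15 of the 17 heat shock probe sets, the exceptions being Mir207/Dnaja1 and Hspa8 10368025. WT replicate 4 lay within or below the KO range in 15 of the 17, in all but the 2 Hspb1 probe sets, and was the lowest WT liver in 13. The share of all probe sets with each of these orders was not computed, so whether they are particular to heat shock genes is not known. The livers were singled out in these same probe sets, and probe sets of a gene are not independent, so these counts only describe. Set against the mean of the 10 arrays, the median deviation over the heat shock probe sets was -0.35, -0.30, -0.33, -0.01 and -0.15 in KO replicates 1 to 5, and 0.46, 0.55, 0.56, -0.36 and 0.02 in WT replicates 1 to 5. Cirbp ran the other way in the WT livers, with deviations of -0.26, -0.31, -0.61, 0.38 and 0.14, and lay between 0.08 and 0.20 in all KO livers. Without WT replicate 4, 11 of the 20 member probe sets were called (5.43% of all probe sets), and without any other single array 2 or 3 were. Those added were Hspa1a alone, the second Snord14 probe set, 2 of Hsp90aa1, and 1 each of Hsph1, Dnaja1 and Dnajb1, with differences between -1.04 and -0.35. WT replicate 4 was the lowest WT liver in each of these, so leaving it out widens their differences by construction. The interquartile range of log2 values on an array measures how widely its values are spread. It was 2.98, 2.93, 2.81, 2.89 and 2.94 on the arrays of WT replicates 1 to 5. On those of KO replicates 1 to 5 it was 2.81, 2.82, 2.80, 2.96 and 2.99. The sample titles also carry 2 numbers whose meaning is not stated. The first is consecutive, higher in all KO than in all WT samples, so any order it stands for and genotype cannot be told apart. By the other, the livers run in ascending order as WT replicate 1, KO replicate 5, WT replicates 2 and 3, KO replicates 4, 3 and 2, WT replicate 4, KO replicate 1 and WT replicate 5. KO replicates 1 and 2 and WT replicates 4 and 5 thus have the 4 highest, apart from WT replicates 1 to 3. KO replicates 5 and 4, the higher KO livers by median deviation, rank 2 and 5, beside WT replicates 1 to 3 at ranks 1, 3 and 4. Among those 4 livers Hspb1 (10408928) read 8.43 and 8.27 in KO and 9.58 and 9.23 in WT. It could not overlap in any subset, since every KO liver lay below every WT liver. The shared Hspa1a and Hspa1b probe set read 9.37 and 9.63 in KO and 9.62 and 10.25 in WT, with overlap. No conclusion is drawn from 2 livers of each genotype. The part of the title numbers and of the array spread in the pattern was not tested.

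**Figure D4:**
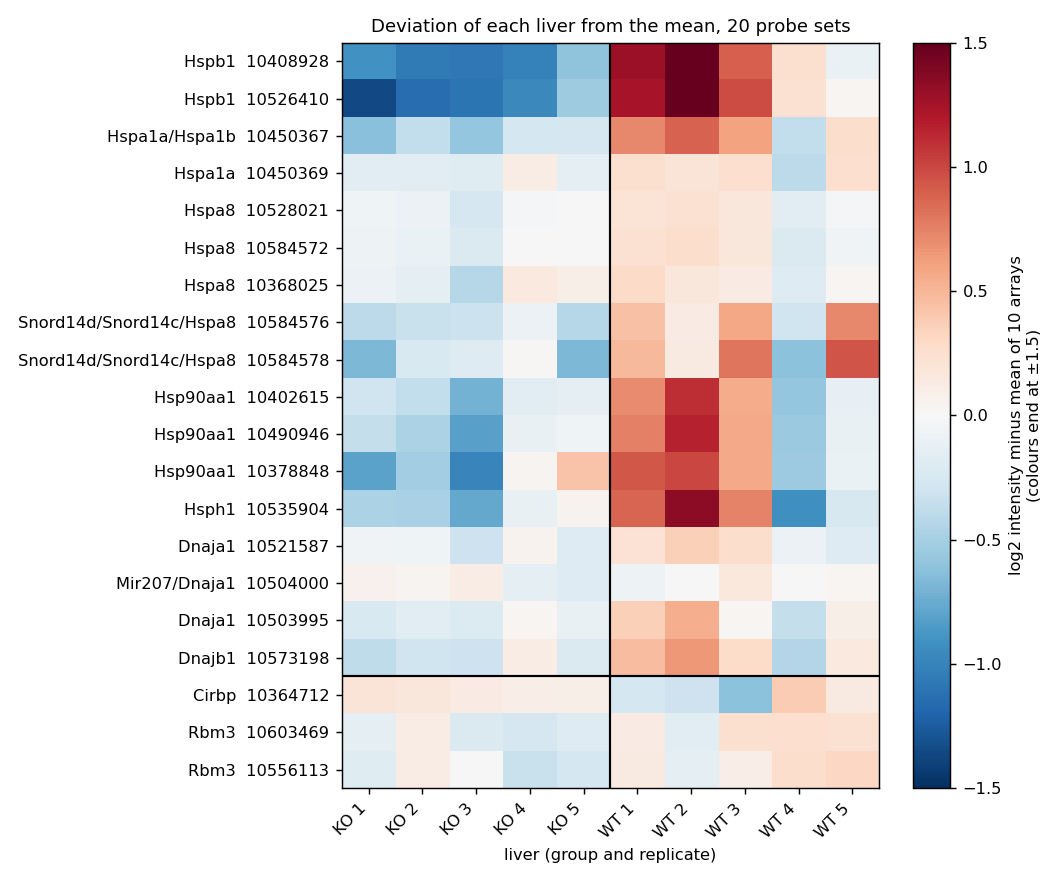
Deviation of each liver from the mean of the 10 arrays in log2 intensity, 20 probe sets (rows) by liver (columns, KO left, WT right), with colours ending at ±1.5. WT replicates 1 to 3 are red in most heat shock rows and blue for Cirbp, and WT replicate 4 is blue in most heat shock rows and red for Cirbp.

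Genes that varied between livers most like the members were looked for with Pearson's r over the 10 arrays, taken on deviations from the mean of each array's own genotype so that the genotype difference could not enter. The search took probe sets of 1 symbol outside the members, left out clone and model names, and kept 1 probe set per gene. The highest r values from such a search carry no test, and all points share the same 10 arrays and their normalization. The r values rest mostly on the 5 WT livers, which varied more. The SD was 0.175 in KO and 0.498 in WT for the shared Hspa1a and Hspa1b probe set, and 0.193 and 0.953 for Hspb1 (10408928). Closest to the shared Hspa1a and Hspa1b probe set among genes outside the members were Eef1e1 (r = 0.963), P4ha1 (0.962), Urb1 (0.959), Heatr1 (0.957), Zfand2a (0.951), Cadm3 (0.949), Prpf4b and Ccnt1 (both 0.947). Of these, Zfand2a encodes an arsenite-inducible regulator of the proteasome, and P4ha1 a subunit of the enzyme that hydroxylates prolines of collagen. None of the 8 was called between genotypes by limma over all probe sets (adjusted p of 0.134 to 0.780). Within the members, Hsph1 had r = 0.961 with the shared probe set, Dnajb1 0.944, Hsp90aa1 0.885 to 0.939 and Cirbp -0.817. Hspb1 stood further off, at 0.737 and 0.775, and the Snord14 probe sets further still, at 0.494 and 0.504. Mir207/Dnaja1 had -0.231, and Rbm3 had the sign of Cirbp, at -0.481 and -0.582. With Hspb1 (10408928), r was -0.608 for Cirbp, -0.718 and -0.739 for Rbm3, and -0.172 and -0.148 for the Snord14 probe sets. Nearest to Hspb1 (10408928) were Ndufb11 (0.979), Zswim1 and Puf60 (both 0.969), Trmt1 (0.962), Slc35c1 (0.960), Cmc2 (0.958), Dmac1 (0.956) and Rpl27a (0.949), with limma adjusted p of 0.379 to 0.971 between genotypes.

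Few of the other chaperone and temperature-responsive genes passed. Of 79 probe sets for 74 genes in 8 lists of related genes, 3 were called higher and 1 lower in KO (5.06%, against 5.15% of all probe sets tested), while the KO mean was the lower one in 56 of them (70.9%, against 46.7%). Genes of these lists without a probe set of their own, such as Hsp90ab1, Hsf1 and Srsf7, were not analysed here. Among 12 HSP40 genes Dnajb4, a cytosolic relative of Dnajb1, fell by 0.28 (SE 0.0681, limma adjusted p = 0.0347), and Dnaja3, a mitochondrial HSP40, rose by 0.22 (SE 0.0547, limma adjusted p = 0.0350). Each call was lost when any 1 of 8 arrays was left out (limma adjusted p up to 0.0833 and 0.0864), and held without KO replicate 4 or WT replicate 4 for Dnajb4 and without KO replicate 2 or WT replicate 2 for Dnaja3. The other 10 did not pass, Dnajc5 lying nearest at -0.15 (limma adjusted p = 0.0698), followed by Dnajc8 at -0.18 (0.217), and the list's median difference was -0.11.

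None of the 13 HSP70 relatives and exchange factors passed in limma, against 5.15% of all probe sets. At an unadjusted p under 0.05, 3 were lower and 0 higher (17% of all in either direction), and the median was -0.07. In lists this small, here and below, 0 calls is near the share of all probe sets and is no negative result. Bag3, an HSF1-driven co-chaperone that hands HSP70 clients to autophagy, read 9.20 to 9.56 in KO and 9.23 to 10.42 in WT livers, with WT replicate 4 again the lowest WT liver (-0.54, limma adjusted p = 0.134, and 0.00837 without WT replicate 4). Hspa2, an HSP70 best known from testis, differed by -0.26 (limma adjusted p = 0.0857), and passed without KO replicate 5 or WT replicate 1 (lowest limma adjusted p 0.0132). Among 15 probe sets for HSP90 co-chaperones and the mitochondrial HSP90 Trap1, 0 passed in limma and 2 were lower at an unadjusted p under 0.05. These were Ahsa1, which stimulates the HSP90 ATPase (-0.27, limma adjusted p = 0.271, and 0.0406 without WT replicate 4), and the co-chaperone p23 gene Ptges3 (-0.17, 0.247). The list's median was -0.11. For Bag3, Hspa2 and Ahsa1 the array left out was the lowest WT or highest KO liver. Leaving it out widens the difference by construction, so these smaller p values are no support for a call.

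Chaperonin genes encode the barrel-shaped chaperones of cytosol and mitochondria. Their mean was lower in KO in all 12 probe sets, between -0.19 and -0.06 (46.7% of all probe sets had a lower KO mean). By limma 0 of them passed (5.15% of all), and 5 had an unadjusted p under 0.05 (17% of all). Nearest were the subunit genes Cct7 (-0.19, limma adjusted p = 0.103) and Cct8 (-0.15, 0.104). The small heat shock genes other than Hspb1 had a median of 0.00, with 0 of 8 passing in limma, 1 at an unadjusted p under 0.05 (Cryab, -0.13, limma adjusted p = 0.128) and Hspb7 next at 0.12 (0.538). Of 5 heat shock factors and other HSF1 targets 0 passed in limma and 1 had an unadjusted p under 0.05, Hsf4 (-0.15, limma adjusted p = 0.237), with the collagen chaperone Serpinh1 at -0.11 (0.357). Of 8 probe sets for splicing factors linked to body temperature 0 passed in limma and 0 had an unadjusted p under 0.05, with the kinases Clk4 and Clk1 at -0.10 and 0.07 (limma adjusted p = 0.534 and 0.633).

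Genes induced by glucocorticoids, hormones that rise with stress and before the active phase, were called higher in KO by limma in 2 of 6 (2.88% of all probe sets) and lower in 0, and 2 of the 6 had the lower KO mean. Tsc22d3, the anti-inflammatory GILZ gene, read 10.92, 11.03, 10.60, 10.98 and 10.52 in KO livers against 10.50, 9.62, 10.17, 9.63 and 10.45 in WT livers. Its KO livers all lay above its WT livers. The difference was 0.74 (SE 0.183, limma adjusted p = 0.0385), and Zbtb16, a zinc finger transcription factor gene, rose by 0.93 (SE 0.239, limma adjusted p = 0.0455). Leaving out any 1 of 7 arrays ended the call of Tsc22d3 (limma adjusted p up to 0.0953; it held without KO replicate 5, WT replicate 1 or WT replicate 5), and any 1 of 8 that of Zbtb16 (up to 0.107; it held without WT replicate 2 or WT replicate 3). Sgk1 and Fkbp5 differed by 0.21 and 0.32 and did not pass (limma adjusted p = 0.368 and 0.622). The part of these hormones in the values of the heat shock genes was not tested.

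**Figure D5:**
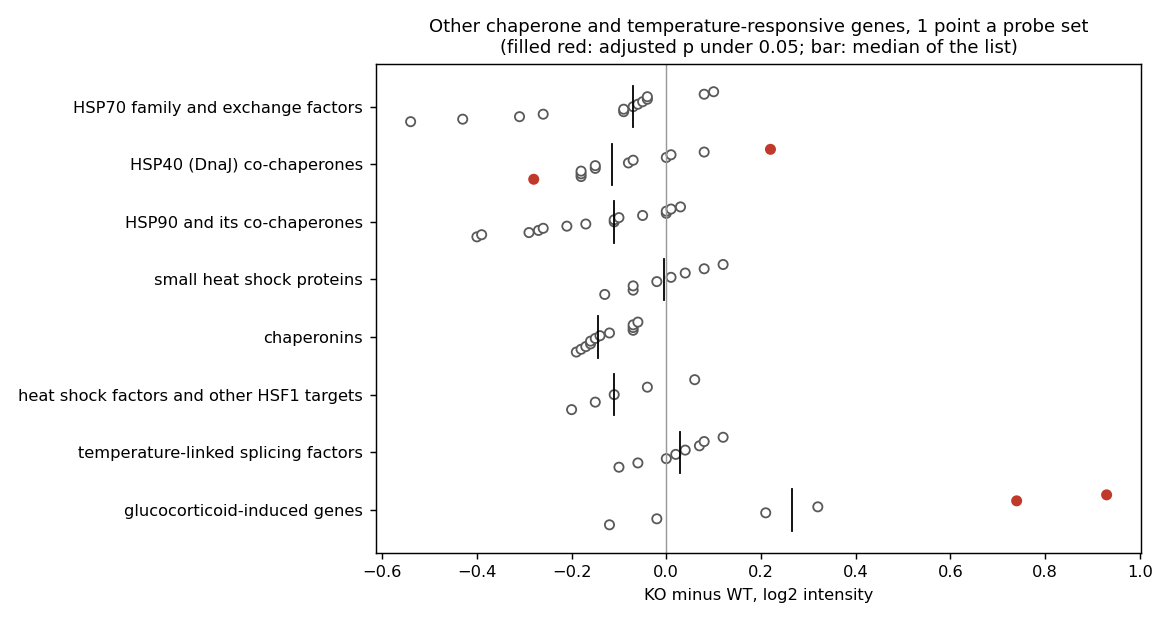
KO minus WT difference in log2 intensity for 79 probe sets of 8 lists of related genes, 1 point a probe set and a black bar at the median of each list. The filled points, which passed an adjusted p under 0.05, are Dnajb4 and Dnaja3 among the HSP40 genes and Tsc22d3 and Zbtb16 among the glucocorticoid-induced genes.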

How the data were processed

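Liver RNA of 5 KO and 5 WT mice was measured on 1 array each. The authors deposited normalized intensities on a linear scale for 27541 probe sets; per the submitters' processing notes the tools were RMA and Partek, with no version named. Filters are not stated there. The median intensity of an array was 156 to 165, there are no detection calls, and the number of arrays limits the precision.

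Log2 was taken, and probe sets were named by the platform annotation: 21631 had 1 symbol, 1317 several and 4593 none. The 22948 with a symbol were tested so that the row shared by Hspa1a and Hspa1b stayed in. KO was compared with WT by limma 3.58.1 in R 4.3.3 (lmFit, eBayes, two-sided, no covariates, Benjamini-Hochberg), tested on simulated data first. Genes named were all members, Nr1d1, Arntl, the called genes and 2 others of smallest p in each list, and the 8 genes most like Hspa1a/Hspa1b and Hspb1. The members and lists were chosen with earlier results of these data known. Promoters came from RefSeq (GRCm38.p6). Replicate numbers only name mice, and a p-value reflects how much these mice varied. Alternatives covered the rows tested, a filter on dim probe sets, normalization, the variance model and arrays left out.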

Additional observations from a re-analysis of the deposited data

Results flagged for a closer look

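Of 84 groups of 5 livers (42 named probe sets, 2 genotypes), 6 held a liver far from the other 4 by Dixon's gap test, which chance alone flags in about 5% of groups. For Hspa1a (10450369), KO replicate 4 read 8.21, with the other KO livers at 7.91 to 7.94, and WT replicate 4 read 7.70, with the other WT livers at 8.28 to 8.35. KO replicate 4 also read 11.00 for the Snord14/Hspa8 probe set 10584576, where the nearest KO liver read 10.76. For Hspa2, WT replicate 1 read 7.35 and the others 7.55 to 7.61. For Dnajc8, KO replicate 2 read 7.66 and the others 7.90 to 7.97. For Fkbp5, KO replicate 5 read 10.54 and the others 9.28 to 9.62.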

How the results depend on the processing

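No paired analysis was possible because the numbers in the sample titles differ for every mouse, so the genotypes share none. Calls among the 20 members numbered 4 with all arrays, 3 with array weights or with probe sets without a symbol added, and 4 with dim probe sets removed, arrays centred, quantile normalization repeated or weights per genotype. They numbered 1 with probe sets of 1 symbol (highest or mean per gene). There the called Hspa1a/Hspa1b and Snord14/Hspa8 rows drop out and Hspb1 keeps 1 row, so the lower count reflects the rows tested. Calls numbered 2 with a variance trend and robust priors, and 0 without the 3 arrays of widest interquartile range. In that last fit 530 probe sets were called in all against 1181, with fewer arrays in the fit. Leaving out single arrays gave 2 to 11 (11 without WT replicate 4). Of 385 member differences under the alternatives, 352 kept their side of the threshold, and no called difference changed sign.

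Counts in the lists of related genes moved by 1 or 2. HSP40 genes gave 0 to 1 call when single arrays were left out, and 0 with arrays centred or without the 3 widest arrays. Glucocorticoid-induced genes gave 0 to 1 call when single arrays were left out, 1 with probe sets without a symbol added or arrays centred, and 0 with the variance trend or without the 3 widest arrays. HSP70 relatives gave 1 with array weights and without the 3 widest arrays, and 0 to 1 when single arrays were left out, as did HSP90 co-chaperones and HSF1 targets. The cause was not tested. The KO SD stayed below the WT SD in 16 to 19 of 20 member probe sets, while 35 of 280 single SD ratios moved by over 1.5 times. Signal over background is unknown without detection calls.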
